A study of Mus musculus with 16 samples.

Results

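Homeobox developmental genes encode transcription factors that pattern the embryo, and those described here are the Hox genes and 15 further families (Nkx, Lhx, sine oculis-related, Irx, Dlx, Pax, Pitx, Otx, Msx, Emx, Gsx, Vax, Barhl, Gbx and En). They were chosen by gene symbol, with no measured value in the rule, although earlier results of these data were known by then. The rule gave 106 genes of the 23424 named in the files: 39 Hox genes and 67 others. All 106 were in the RNA files and 105 in the H3K27me3 files, where Hoxd4 had no interval. 1 further Pax gene that the naming pattern would match is not analysed here.

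Trimethylation of histone H3 at lysine 27 (H3K27me3) is written by Polycomb repressive complex 2, of which Ezh2 is the main catalytic subunit in dividing cells, and it marks genes that a cell lineage keeps silent. Homeobox genes are the classical Polycomb targets, first recognised through fly mutants in which Hox genes are switched on in the wrong segments. Mature T cells transcribe few of them, although several Hox genes act in blood stem and progenitor cells.

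The cells were mouse CD4 T cells with Ezh2 deleted by a Cre recombinase under CD4 control (Ezh2 fl/fl.CD4Cre, labelled Ezh2-/-), set against cells with the same floxed alleles and no Cre (Ezh2 fl/fl, the control). The CD4 promoter is active from the thymus onward, so deletion precedes the cultures. Sorted naive cells were activated with plate-bound anti-CD3 (5 µg/ml) and soluble anti-CD28 (1 µg/ml). Induced regulatory T cell (iTreg) cultures received IL-2 (200 U) and TGF-b1 (5 ng/ml), and neutrally activated Th0 cultures received IL-2 alone (50 U). Harvest was on day 4, although the titles of the iTreg libraries give day 5. The labels used here state neither the age nor the sex of the mice. RNA-seq covered 3 biological replicates each of iTreg Ezh2-deleted, iTreg control, Th0 Ezh2-deleted and Th0 control cells (12 libraries), and H3K27me3 ChIP-seq covered 2 Th0 libraries of each genotype. Libraries go by the number in their title, whose meaning the labels do not state, and RNA values of a group are always given in the order of these numbers: Ezh2KO.150, then Ezh2KO.153, then Ezh2KO.165 for iTreg Ezh2-deleted cells, 154, 155 and 177 for iTreg control cells, Ezh2KO.165, then Ezh2KO.174, then Ezh2KO.175 for Th0 Ezh2-deleted cells, and 173, 176 and 177 for Th0 control cells. ChIP values are in the order 9 and 10 (Ezh2-deleted) and 7 and 33 (control).

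RNA libraries held 21910114 to 28443427 counted reads and ChIP libraries 11124172 to 15103496. Ezh2 RNA was 123, 118 and 48.7 CPM (reads scaled to a common library total) in iTreg Ezh2-deleted cells, against 251, 241 and 166 CPM in iTreg control cells (log2 fold change -1.18 ± 0.30 SE, adjusted p = 0.0235, edgeR). It was 169, 154 and 148 CPM in Th0 Ezh2-deleted cells, against 307, 295 and 312 CPM in Th0 control cells, with no overlap, but the test was not passed (-0.99 ± 0.30, adjusted p = 0.0618). Reads from Ezh2 exons outside the floxed part are counted too, so these values do not give the deleted fraction. The iTreg Ezh2-deleted library Ezh2KO.165 and the iTreg control library 177 stood apart: on the first principal component (46.5% of the variance) they lay at 108.6 and 98.2, against -1.87 to 44.9 for the other iTreg libraries. Their numbers are also the 2 that recur in Th0 titles. T cell marker genes were high in every RNA library (7 genes, summed 1819 to 4176 CPM).

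In Th0 cells, 96 of the 97 homeobox genes that could be tested carried less H3K27me3 in Ezh2-deleted than in control cells, and none carried more (edgeR quasi-likelihood test, Benjamini-Hochberg adjusted p under 0.05; 0 higher and 96 lower also at an unadjusted p under 0.05 and by DESeq2). Of all 20376 intervals tested, 20.6% were lower and 32.2% higher by edgeR at an adjusted p under 0.05. The shares of all intervals at an unadjusted p and by DESeq2 are not given here. Density, the reads per kb of the gene interval at a common library total (CPM per kb), had a median over the 97 genes of 1.69 and 1.25 CPM per kb in Ezh2-deleted libraries 9 and 10, against 7.28 and 5.57 in control libraries 7 and 33. Over all intervals the medians were 0.920 and 0.989 in the Ezh2-deleted libraries and 0.925 and 0.892 in the control libraries. Both control libraries lay far above both Ezh2-deleted libraries for the homeobox genes, while the 4 values over all intervals lay close together. Scaling each library to its own total tends to hold the values over all intervals together, so their closeness does not show that other intervals kept their mark. The changes given here are relative to the other intervals, and an absolute loss was not measured. The median fold change was -2.07 on the log2 scale, a 4.21-fold lower density, against +0.21 over all intervals. With TMM scaling, which assumes that most intervals do not change, the medians were -2.31 for the homeobox genes and -0.02 for all intervals, and the count stayed at 96.

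With 1 ChIP library left out, 1 library is set against 2 and the spread comes from the remaining pair alone, so these p-values depend on which pair that is. Without Ezh2-deleted library 10 or 9 no member passed (0 of 97, smallest adjusted p 0.0565 and 0.0596; 95 and 96 lower at an unadjusted p under 0.05), and none of all intervals tested did in either direction. The median log2 change of the 97 genes was -1.89 without library 10 and -2.29 without library 9, with 96 and 97 genes below 0, and it was -2.25 without control library 33 and -1.88 without control library 7, with all 97 below 0.

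**Figure D1:**
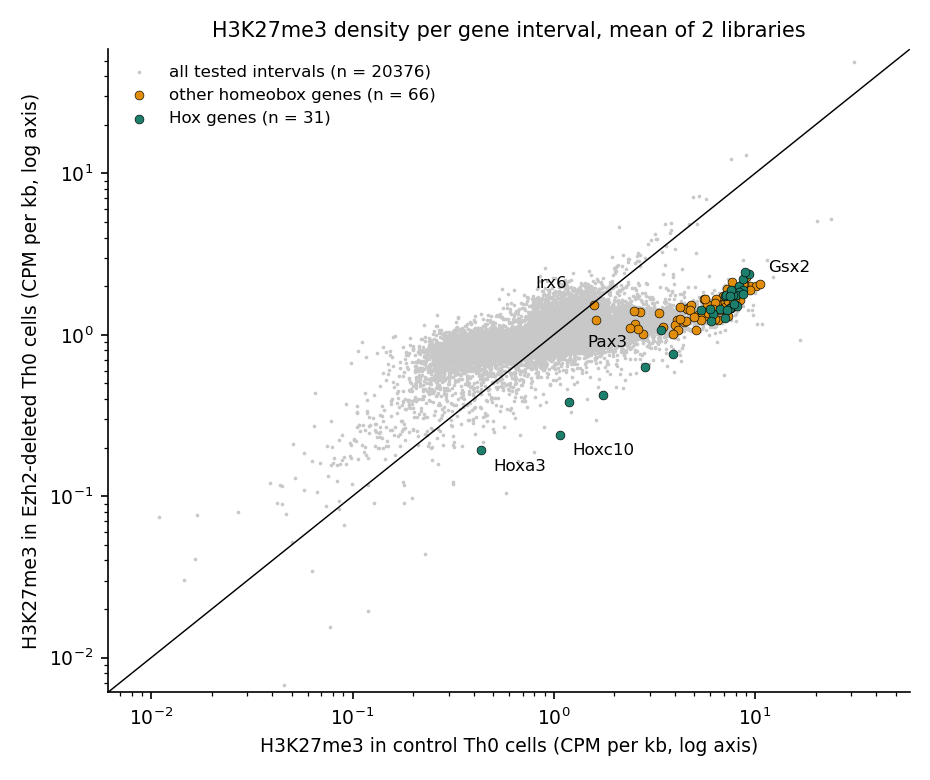
H3K27me3 density of each tested gene interval in Th0 cells, as the mean of 2 libraries per genotype in CPM per kb on log axes (Ezh2-deleted on the vertical axis, control on the horizontal), with Hox genes in green, other homeobox genes in orange and all 20376 intervals in grey; the line marks equal values. Most homeobox genes lie at the right below the line, among other densely marked intervals; Irx6 lies beside the line, and Hoxa3, Hoxc10 and Hoxa2 lie far to the left.

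The homeobox genes were among the most heavily marked intervals of the control cells. Their median control density, 6.40 CPM per kb, was at percentile 98.86 of all tested intervals. Of the 97 genes, 91 were in the top 10% of control densities (at least 2.20 CPM per kb) and 46 were in the top 1% (at least 6.68 CPM per kb), a class of 204 intervals. In Ezh2-deleted cells the median, 1.48 CPM per kb, was at percentile 95.25, and 69 of the 97 genes were in the top 10% (at least 1.31 CPM per kb). Together the 105 genes took 0.183% and 0.149% of the counted reads of Ezh2-deleted libraries 9 and 10, against 0.641% and 0.518% in control libraries 7 and 33. The 2 libraries of a genotype differed in the same direction for most genes: 87 of 97 were higher in Ezh2-deleted library 9 than in 10, and 94 of 97 were higher in control library 7 than in 33.

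The 8 highest control densities belonged to genes with roles far from the immune system, with 1 exception. Gsx2, a patterning gene of the ventral forebrain, had 2.59 and 1.53 CPM per kb in Ezh2-deleted libraries 9 and 10, against 11.7 and 9.36 in control libraries 7 and 33. Dlx2 and Dlx1, neighbours that specify forebrain interneurons, followed with 2.60 and 1.405, against 11.8 and 8.49 (Dlx2), and 2.31 and 1.68, against 11.3 and 7.64 (Dlx1). Lhx1, needed for head and kidney formation, had 2.25 and 1.55 CPM per kb in Ezh2-deleted libraries and 10.7 and 8.08 in control libraries. Hoxc12, Hoxd9 and Pitx1, the last a hindlimb identity gene, had mean control densities between 8.79 and 9.35 CPM per kb. Nkx2-3, the exception, is needed to form the spleen, and had 3.07 and 1.47 CPM per kb in Ezh2-deleted libraries, against 10.9 and 7.21 in control libraries. Their log2 fold changes ran from -2.37 (Gsx2, adjusted p = 0.00019) to -1.87 (Hoxd9, adjusted p = 0.0017). In none of these 8 genes did the genotypes overlap, but picking them by control density favours that. The share of all intervals without overlap was not counted.

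Promoter sequences are shown for the 3 most and the 3 least densely marked genes among the 13 tested genes whose upstream window lies outside their own interval and every other RefSeq gene. Each is the 250 bases before the gene's most upstream start in the RefSeq promoter table (build GRCm38.p6), read 5′ to 3′ on the gene's strand, with every CG dinucleotide in capitals. CG-rich DNA is where Polycomb complexes are known to gather in mammals. The densely marked genes are Dlx2 at chr2:71546755-71547004 (minus strand), Nkx2-3 at chr19:43612075-43612324 (plus strand) and Hoxa10 at chr6:52240855-52241104 (minus strand). The least densely marked of the 13 are Lhx8 at chr3:154330561-154330810 (minus strand), Pax8 at chr2:24475600-24475849 (minus strand) and Six5 at chr7:19094294-19094543 (plus strand). Over all tested intervals these 3 were still in the top 10% of control densities (percentiles 93.78, 93.53 and 91.72).
Dlx2: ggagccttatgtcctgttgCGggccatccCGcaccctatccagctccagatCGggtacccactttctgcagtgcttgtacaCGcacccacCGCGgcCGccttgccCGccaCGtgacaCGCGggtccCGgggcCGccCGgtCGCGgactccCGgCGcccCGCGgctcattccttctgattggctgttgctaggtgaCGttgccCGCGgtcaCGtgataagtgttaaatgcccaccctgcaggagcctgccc
Nkx2-3: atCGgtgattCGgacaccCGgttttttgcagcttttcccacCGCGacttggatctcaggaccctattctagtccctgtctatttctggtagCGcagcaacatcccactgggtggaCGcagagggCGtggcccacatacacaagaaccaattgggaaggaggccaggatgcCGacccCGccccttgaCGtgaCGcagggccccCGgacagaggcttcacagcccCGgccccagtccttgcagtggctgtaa
Hoxa10: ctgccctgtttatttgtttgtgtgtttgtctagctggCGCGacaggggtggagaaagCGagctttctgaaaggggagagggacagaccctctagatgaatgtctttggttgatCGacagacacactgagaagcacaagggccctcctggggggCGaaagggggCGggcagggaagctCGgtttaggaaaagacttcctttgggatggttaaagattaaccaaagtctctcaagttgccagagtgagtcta
Lhx8: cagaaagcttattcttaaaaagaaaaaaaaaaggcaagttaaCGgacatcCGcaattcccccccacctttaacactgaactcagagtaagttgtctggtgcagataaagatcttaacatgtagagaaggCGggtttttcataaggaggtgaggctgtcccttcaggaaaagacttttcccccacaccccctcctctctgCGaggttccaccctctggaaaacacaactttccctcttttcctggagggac
Pax8: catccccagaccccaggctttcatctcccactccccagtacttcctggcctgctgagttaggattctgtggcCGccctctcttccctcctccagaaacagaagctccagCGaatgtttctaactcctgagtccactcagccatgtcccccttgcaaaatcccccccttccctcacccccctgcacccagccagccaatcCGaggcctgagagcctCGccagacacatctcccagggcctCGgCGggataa
Six5: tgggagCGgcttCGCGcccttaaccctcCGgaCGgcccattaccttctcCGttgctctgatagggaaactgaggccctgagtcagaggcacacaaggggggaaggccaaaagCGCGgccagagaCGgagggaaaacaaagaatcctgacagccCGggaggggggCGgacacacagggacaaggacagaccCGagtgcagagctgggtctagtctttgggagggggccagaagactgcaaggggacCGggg

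The Dlx2 window holds 24 CG and that of Nkx2-3 holds 14, whereas Hoxa10, at 8.35 CPM per kb in control cells, holds 7. Among the 3 least densely marked genes Lhx8 holds 4, Pax8 holds 6 and Six5 holds 13, so the windows do not sort by density. The table gives 69 of the 106 genes. Their windows held 2 to 36 CG with a median of 14, against 10 for the windows of 17491 protein-coding genes. All 69 held at least 1 CG, against 92.6% of protein-coding genes, and 72.5% held at least 10, against 50.4%. Within the family, the 28 genes in the top 1% of control density had a median of 14.5 CG and the other 36 tested genes 13.5.

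Among the Hox clusters, chromosome stretches in which gene order follows the head-to-tail order of expression, losses were similar. The median log2 change was -2.12 in the Hoxa cluster (8 genes tested), -2.32 in Hoxb (10 genes), -2.18 in Hoxc (6 genes) and -2.06 in Hoxd (7 genes), and all 31 Hox genes tested were called lower. Hoxb8 had the largest change of all 97 genes (-2.51 ± 0.29, adjusted p = 0.000125), with 1.52 and 1.01 CPM per kb in Ezh2-deleted libraries 9 and 10, against 7.81 and 6.44 in control libraries 7 and 33. Hoxb6 (-2.44), Hoxb2 (-2.39) and Hoxc11 (-2.38) were also among the 6 largest changes. Hoxa9, a driver of blood progenitor growth, had 3.00 and 1.42 CPM per kb in Ezh2-deleted libraries, against 9.74 and 7.73 in control libraries.

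The low Hox densities belonged to genes whose intervals lie under other intervals. Hoxa3 had 0.165 and 0.221 CPM per kb in Ezh2-deleted libraries, against 0.428 and 0.442 in control libraries, over an interval of 49981 bases of which 9803 are covered by no other gene. Counted per uncovered kb its densities were 0.843 and 1.13 in Ezh2-deleted libraries, against 2.18 and 2.26 in control libraries. Hoxc10 had 0.299 and 0.182 CPM per kb in Ezh2-deleted libraries, against 1.28 and 0.864 in control libraries, over its whole interval. Per uncovered kb it had 2.36 and 1.43 CPM per kb in Ezh2-deleted libraries, against 10.1 and 6.81 in control libraries, with 647 uncovered bases. For 8 genes no base was free of another interval and no read was counted in any library, so nothing can be said of their mark: Hoxa4, Hoxa5, Hoxa6, Hoxc6, Hoxc8, Hoxc9, Hoxd8 and Nkx1-2. In all, 30 of the 105 intervals overlap another gene, and without every overlapping interval 74 of 75 genes were lower.

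**Figure D2:**
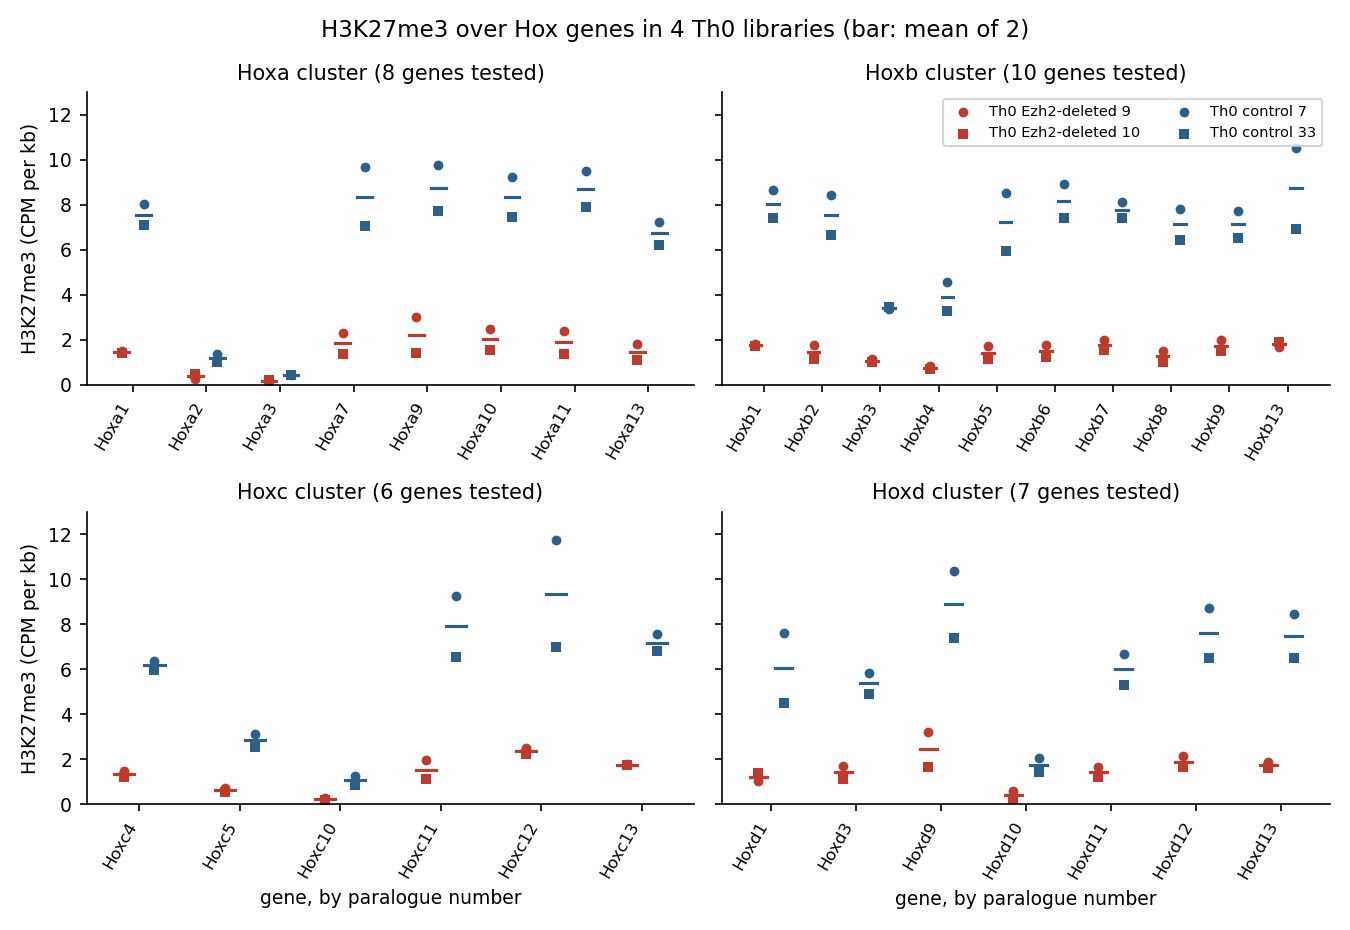
H3K27me3 density (CPM per kb, axis from 0) of the 31 Hox genes tested in the 4 Th0 libraries, in order of paralogue number within each cluster; Ezh2-deleted libraries are red and stand left of the control libraries in blue, and bars are means of 2. Hoxa2, Hoxa3, Hoxc5, Hoxc10 and Hoxd10, whose intervals lie partly under others, are low in both genotypes.

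Outside the Hox clusters, the NK-like genes (Nkx, 12 tested) had a median of 1.48 CPM per kb in Ezh2-deleted and 5.74 in control cells, and the LIM-homeobox genes (Lhx, 8 tested) 1.54 and 6.99. The sine oculis-related genes, such as Six3, partners of the Eya phosphatases, had 1.33 in Ezh2-deleted and 5.36 in control cells (6 tested), Irx genes 1.35 and 5.32 (6 tested), and Dlx genes 1.58 and 6.42 (6 tested). Irx3 (-2.50 ± 0.33, adjusted p = 0.000304) and Dlx4 (-2.41 ± 0.24, adjusted p = 8.25e-05) were the largest changes in these families. Pax genes, which carry a paired domain and pattern neural crest, muscle, kidney and pharyngeal pouches, had 1.21 in Ezh2-deleted and 2.70 in control cells with a median log2 change of -1.28 (8 tested), the lowest median control density and the smallest median change of the families.

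The 6 smallest changes were those of Irx6, Pax3, Pax1, Lhx8, Pax7 and Six5. Irx6 was the only tested gene not called: it had 1.67 and 1.38 CPM per kb in Ezh2-deleted libraries 9 and 10, against 1.65 and 1.52 in control libraries 7 and 33 (log2 fold change -0.06 ± 0.25, adjusted p = 0.856, chr8:92674289-92680956, mm10). Its genotypes overlapped, and without Ezh2-deleted library 10 its change was 0.07. Pax3, a neural crest and muscle progenitor gene, had 1.32 and 1.16 CPM per kb in Ezh2-deleted libraries, against 1.70 and 1.52 in control libraries (-0.38 ± 0.13, adjusted p = 0.0311). Pax1, which acts in the vertebral column and in thymus formation, had 1.55 and 1.27 against 2.76 and 2.25 CPM per kb (-0.83 ± 0.19, adjusted p = 0.00414). Lhx8 changed by -0.96, Pax7 by -1.12 and Six5 by -1.12, and both Ezh2-deleted libraries lay below both control libraries in each. The genes just inside and outside the top 10% of control density, Six5 at 2.38 CPM per kb and Hoxd10 at 1.75, were both called lower.

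Densities are averages over a whole gene, and they were lower in longer genes. The 69 genes with intervals of up to 10000 bases had a median of 1.54 CPM per kb in Ezh2-deleted and 7.12 in control cells. The 10 of 10000 to 20000 bases had 1.402 and 5.92, and the 18 longer ones had 1.31 and 3.38. The median log2 change was -2.15, -2.07 and -1.66 in these classes. Pax3 (95868 bases) and Pax7 (96467 bases) are the longest, whereas Irx6 (6668 bases) and Six5 (3956 bases) are short. Whether length or family accounts for the low Pax values cannot be told apart with whole-gene counts.

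**Figure D3:**
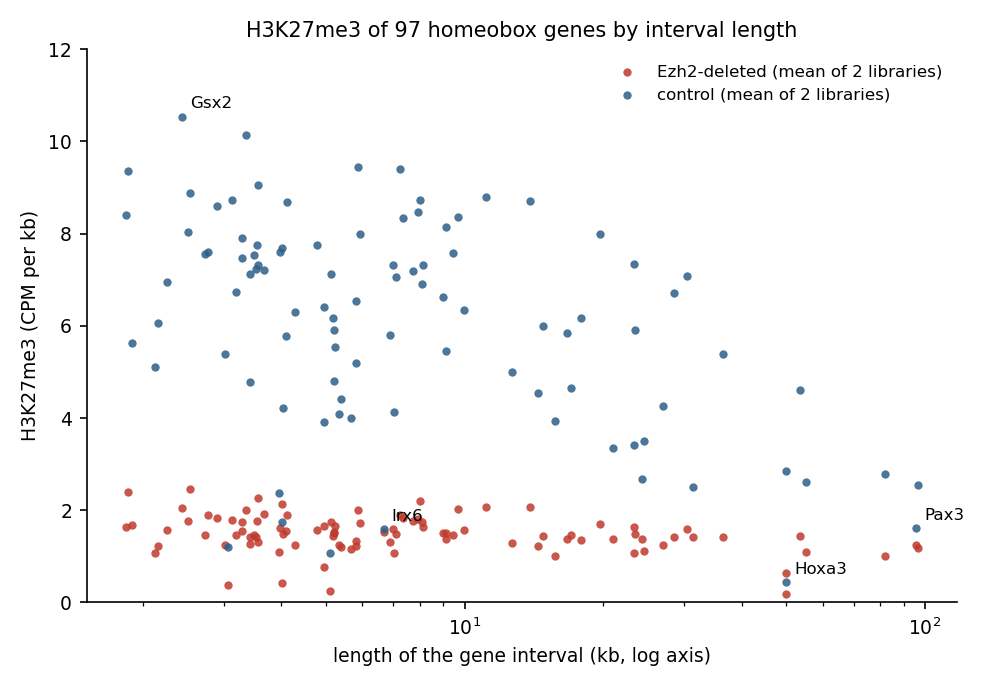
H3K27me3 density (CPM per kb, axis from 0) of the 97 tested homeobox genes against the length of the gene interval (kb, log axis), with Ezh2-deleted values in red and control values in blue, each a mean of 2 libraries. Control densities spread from 0.435 to 10.5 CPM per kb and are lower in long genes, and Ezh2-deleted densities stay at or below 2.45.

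RNA of the homeobox genes was scarce in all groups. 14 of the 106 genes (13.2%) passed the filter on low counts, against 54.8% of all 23420 genes, and a gene passed when 3 libraries reached about 10 counts, so that genes high in 1 group could enter. 30 genes (28.3%) had no read in any of the 12 libraries, against 24.5% of all genes. Another 62 had reads but were not tested, and 86 of the 92 untested genes never exceeded 10 counts in a library. The largest value of any member was 10.1 CPM (Lhx2 in Th0 Ezh2-deleted library Ezh2KO.165), and 12 genes exceeded 1 CPM in some library. Of the 96 genes with less H3K27me3 in Ezh2-deleted Th0 cells, 83 were too low in RNA to test. In bulk RNA, fewer cells with a transcript and less transcript per cell cannot be told apart.

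More of the 106 genes gave at least 1 read in Ezh2-deleted than in control Th0 cells. The numbers were 44, 40 and 45 in Th0 Ezh2-deleted libraries, against 25, 23 and 30 in Th0 control libraries, without overlap. In iTreg cells they were 38, 39 and 37 in Ezh2-deleted libraries, against 32, 33 and 36 in control libraries, also without overlap but with a gap of 1 gene. How many of all genes gave a read in each library was not counted, so whether the difference is particular to the homeobox genes was not tested. Summed over the 106 genes, Th0 Ezh2-deleted libraries held 654, 493 and 472 counts, against 232, 231 and 228 in Th0 control libraries, without overlap. Lhx2 alone gave 262, 121 and 112 of these counts in Th0 Ezh2-deleted libraries and 29, 33 and 25 in Th0 control libraries. The iTreg sums were 472, 454 and 593 counts in Ezh2-deleted libraries, against 378, 375 and 525 in control libraries, and these overlapped.

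In Th0 cells, 3 of the 14 tested genes were higher in Ezh2-deleted than in control cells (Hoxb4, Hoxa4 and Lhx2) and 0 were lower (5 higher and 0 lower at an unadjusted p under 0.05; 3 and 0 by DESeq2). Of all 12845 genes tested, 8.74% were higher and 3.22% lower by edgeR at an adjusted p under 0.05. The shares of all genes at an unadjusted p and by DESeq2 are not given here. The median log2 change was 0.94 over the 14 genes and -0.00 over all genes. In iTreg cells, 5 of 14 were higher (Hoxb4, Hoxa4, Vax2, Six5 and Nkx3-2) and 1 was lower (Hoxb9), where 9.45% of all genes were higher and 7.26% lower. There the medians were 0.59 over the 14 genes and 0.01 over all genes. The 14 are not a sample of the 106, since a gene too low in every group was not tested. Some, such as Hoxa4, Nkx3-2 and Hoxb9, passed the filter only through groups where they are high. The counts and medians over the 14 are therefore partly set by the filter. Hoxb4 and Hoxa4 were higher in both cultures. Apart from Hoxb9, the members called here overlap another RefSeq gene, such as Vax2os at Vax2, Bhmg1 at Six5, and Hoxb3 and Hoxa3 at Hoxb4 and Hoxa4, and their reads may be shared with it.

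Hoxb4, which expands blood stem cells when overexpressed, had 53, 60 and 62 counts in Th0 Ezh2-deleted libraries, against 10, 10 and 9 in Th0 control libraries (log2 fold change 2.48 ± 0.30, adjusted p = 0.000646). In iTreg cells it had 61, 63 and 110 counts in Ezh2-deleted libraries, against 30, 25 and 28 in control libraries (1.64 ± 0.27, adjusted p = 0.00243). Every Ezh2-deleted library lay above every control library in both cultures. With the 6 iTreg libraries fitted alone the iTreg test was missed (adjusted p = 0.0677). Its H3K27me3 density was 0.834 and 0.695 CPM per kb in Ezh2-deleted libraries, against 4.55 and 3.27 in control libraries (-2.36 ± 0.29). The gene lies at chr11:96316684-96321638 (mm10, plus strand). The RefSeq annotation of Hoxb3 overlaps it, whereas the Hoxb3 interval used for ChIP counting starts downstream, at 96323326.

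Hoxa4, its paralogue in the Hoxa cluster, had 24, 16 and 16 counts in Th0 Ezh2-deleted libraries, against 3, 2 and 5 in Th0 control libraries (2.35 ± 0.41, adjusted p = 0.00519). In iTreg cells it had 11, 16 and 16 counts in Ezh2-deleted libraries, against 4, 4 and 2 in control libraries (2.20 ± 0.42, adjusted p = 0.0053). The groups did not overlap in either culture, at levels below 1 CPM throughout. Its mark could not be measured, because its interval lies wholly under others.

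Lhx2, a LIM-homeobox gene of eye, forebrain and hair follicle that also acts in fetal liver blood formation, had 262, 121 and 112 counts in Th0 Ezh2-deleted libraries, against 29, 33 and 25 in Th0 control libraries (2.42 ± 0.58, adjusted p = 0.0222). The groups did not overlap, but the call was lost without Th0 Ezh2-deleted library Ezh2KO.165 (adjusted p = 0.0883) and without Th0 control library 173, 176 or 177 (0.0843, 0.0807 and 0.0959). In iTreg cells it had 78, 91 and 18 counts in Ezh2-deleted libraries, against 68, 57 and 30 in control libraries (0.38 ± 0.55, adjusted p = 0.749), with overlap. Per kb of transcript it was the highest member in Th0 Ezh2-deleted cells, 2.71 CPM per kb, against 0.490 in Th0 control cells. Its mark was 1.76 and 1.43 CPM per kb in Ezh2-deleted libraries, against 7.87 and 6.27 in control libraries (-2.15 ± 0.16, adjusted p = 4.39e-05).

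Nkx3-2, a gene of the axial skeleton and spleen, had 22, 29 and 1 counts in iTreg Ezh2-deleted libraries, against 1, 1 and 0 in iTreg control libraries. Over the group that is a ratio of 28.3 with a 95% exact binomial interval of 7.45 to 239.9, which covers counting error only. The fitted change (4.57 ± 1.34, adjusted p = 0.0429) came from libraries Ezh2KO.150 and Ezh2KO.153, and the call was lost without either of them (0.0949 and 0.117), without any iTreg control library (0.111 to 0.114), without Th0 Ezh2-deleted library Ezh2KO.174 (0.0511) or without any Th0 control library (0.0625 to 0.0635). In Th0 cells it had 54, 11 and 9 counts in Ezh2-deleted libraries, against 5, 4 and 4 in control libraries, without overlap and without passing the test (2.41 ± 1.00, adjusted p = 0.178).

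Lhx2 and Nkx3-2 were both highest in Th0 Ezh2-deleted library Ezh2KO.165. Markers of B cells were also highest there: 8 genes summed to 496, 217 and 243 CPM in Th0 Ezh2-deleted libraries, against 73.2, 74.1 and 123 in Th0 control libraries, all 8 were called higher, and none was at 0 in all libraries. In iTreg cells they summed to 54.5, 60.9 and 19.2 CPM in Ezh2-deleted libraries, against 29.0, 25.9 and 27.1 in control libraries, and 5 of the 8 were called lower and 0 higher. NK markers (4 genes) summed to 278, 458 and 387 CPM in Th0 Ezh2-deleted libraries, against 30.4, 34.0 and 30.5 in Th0 control libraries. Nkg7 made up most of these sums (mean 365 CPM in Th0 Ezh2-deleted and 30.6 CPM in Th0 control cells), while Ncr1 averaged 0.074 and 0.013 CPM. In iTreg cells NK markers summed to 351, 414 and 123 CPM in Ezh2-deleted libraries, against 43.9, 31.0 and 31.8 in control libraries. CD8 T cell markers (2 genes) summed to 138, 132 and 39.6 CPM in iTreg Ezh2-deleted libraries, against 26.7, 26.6 and 18.01 in iTreg control libraries. Cd8a made up most of these sums (mean 85.3 CPM in iTreg Ezh2-deleted and 13.8 CPM in iTreg control cells). It was not called (adjusted p = 0.0543, edgeR), whereas Cd8b1 was called higher (0.00597). In Th0 cells the CD8 sums overlapped, with 10.0, 8.54 and 6.33 CPM in Ezh2-deleted and 8.30, 10.0 and 6.91 in control libraries. The iTreg sums of NK and CD8 markers, like the Nkx3-2 counts, were lowest among iTreg Ezh2-deleted libraries in Ezh2KO.165, and both kept the genotypes apart. Treg markers (3 genes) summed to 1404, 1377 and 541 CPM in iTreg Ezh2-deleted libraries, against 4732, 4947 and 3050 in iTreg control libraries. Il2ra made up most of these sums (mean 943 CPM in iTreg Ezh2-deleted and 3260 CPM in iTreg control cells), and Ikzf2 was not called (adjusted p = 0.891, edgeR). The part of these marker genes in the homeobox values was not tested.

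Vax2, a gene of the ventral retina, had 19, 20 and 13 counts in iTreg Ezh2-deleted libraries, against 3, 1 and 0 in iTreg control libraries (3.71 ± 0.59, adjusted p = 0.00194). In Th0 cells it had 23, 20 and 18 counts in Ezh2-deleted libraries, against 6, 12 and 7 in control libraries (1.19 ± 0.45, adjusted p = 0.136). The groups did not overlap in either culture. Fitted on the 6 libraries of a culture alone, Vax2 passed in Th0 cells (adjusted p = 0.0153) and not in iTreg cells (0.0543). Six5, a gene beside the myotonic dystrophy kinase gene, had 31, 24 and 27 counts in iTreg Ezh2-deleted libraries, against 9, 4 and 5 in iTreg control libraries (2.30 ± 0.41, adjusted p = 0.00373). In Th0 cells Six5 had 74, 36 and 36 counts in Ezh2-deleted libraries, against 28, 33 and 24 in control libraries (0.70 ± 0.35, adjusted p = 0.279). Vax2 had a mark of 1.34 and 1.17 CPM per kb in Ezh2-deleted libraries, against 4.36 and 4.16 in control libraries, and Six5 had 1.16 and 1.04 against 2.40 and 2.36.

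Hoxb9, a gene of thoracic patterning, went the other way in iTreg cells. It had 6, 3 and 2 counts in iTreg Ezh2-deleted libraries, against 38, 72 and 106 in iTreg control libraries (-4.15 ± 0.59, adjusted p = 0.00226). In Th0 cells it had 1, 0 and 1 counts in Ezh2-deleted libraries and 0 in all 3 control libraries, which gives no fold change. All 3 iTreg control libraries lay far above all 3 iTreg Ezh2-deleted libraries. Foxp3, the defining transcription factor of regulatory T cells, moved the same way, with 2201, 1924 and 1428 counts in iTreg Ezh2-deleted libraries, against 22309, 22346 and 24296 in iTreg control libraries (-3.52 ± 0.33, adjusted p = 0.000133), and its part in the Hoxb9 values was not tested. The mark of Hoxb9 in Th0 cells was 1.99 and 1.49 CPM per kb in Ezh2-deleted libraries, against 7.72 and 6.52 in control libraries (-2.04 ± 0.24, adjusted p = 0.000144), at chr11:96271457-96276595 (mm10, plus strand), and no other RefSeq gene lies in its interval. No H3K27me3 library of iTreg cells was analysed here.

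**Figure D4:**
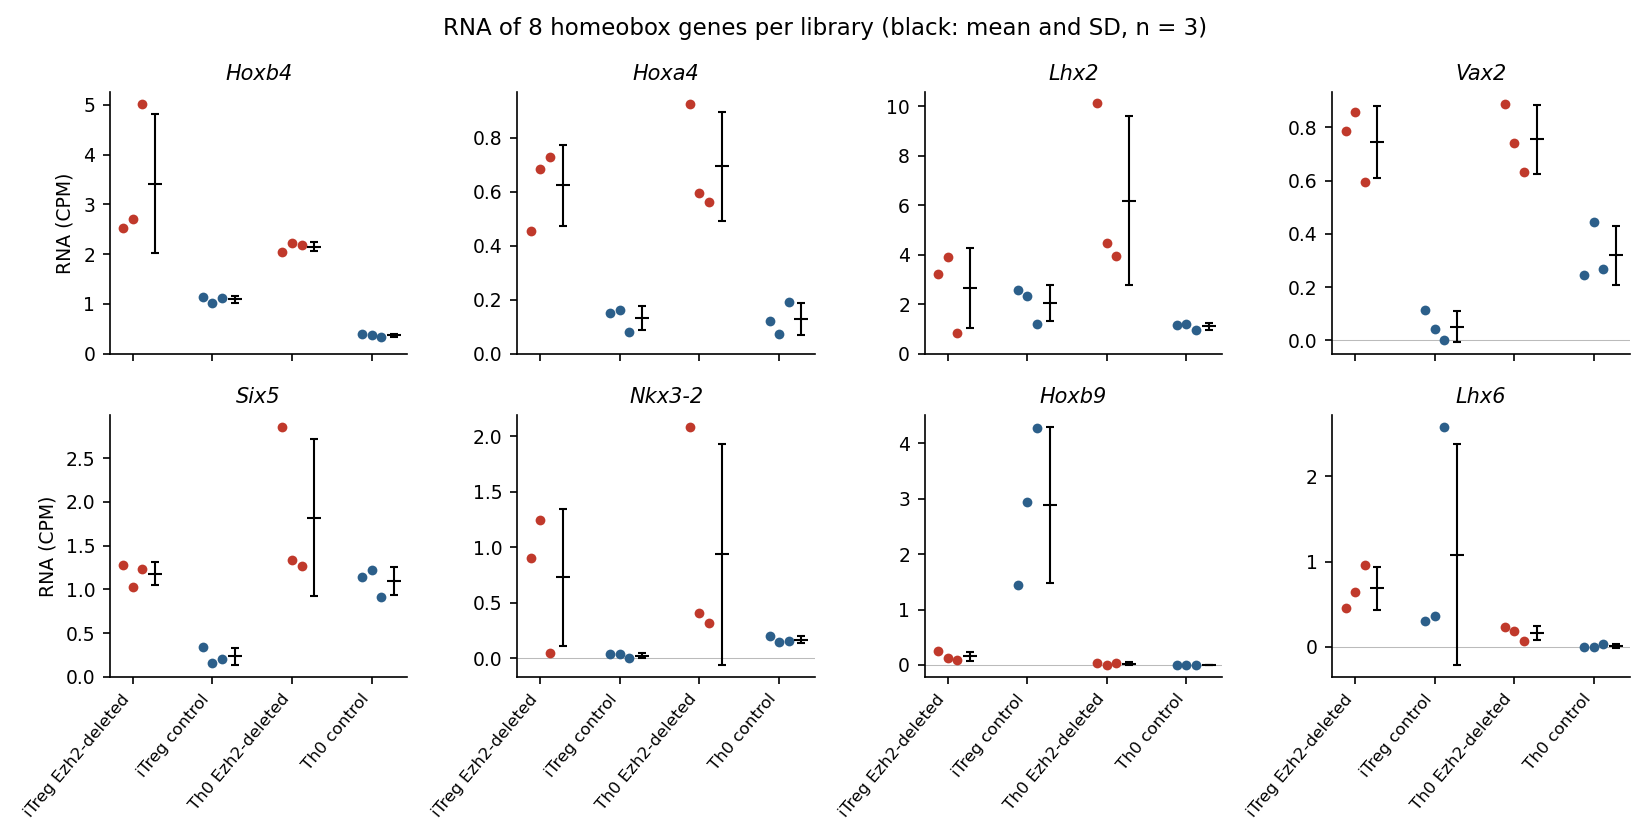
RNA (CPM, linear axes) of 8 homeobox genes in each library, with iTreg Ezh2-deleted, iTreg control, Th0 Ezh2-deleted and Th0 control libraries from left to right in each panel, Ezh2-deleted in red and control in blue, and the mean and SD of 3 libraries in black. Hoxb4 and Hoxa4 are higher in Ezh2-deleted cells of both cultures, and Hoxb9 is highest in iTreg control cells.

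The other 7 tested genes passed no genotype test. Lhx6, an interneuron gene, had 11, 15 and 21 counts in iTreg Ezh2-deleted libraries, against 8, 9 and 64 in iTreg control libraries (-0.65 ± 0.77, adjusted p = 0.686), and 6, 5 and 2 in Th0 Ezh2-deleted libraries, against 0, 0 and 1 in Th0 control libraries (adjusted p = 0.25). Without iTreg control library 177 its iTreg change turned positive (1.01) and its Th0 test was passed (adjusted p = 0.0467). Barhl2, Lhx5, Nkx2-1, Pax1, Six2 and Six3, regulators of retina, hippocampus, thyroid and lung, thymus, kidney and forebrain, had log2 changes between -0.25 and 0.47 in Th0 cells and between -0.25 and 0.64 in iTreg cells, each overlapping between genotypes. H3K27me3 of all 6 was called lower in Ezh2-deleted Th0 cells, with log2 changes from -2.37 ± 0.24 (Lhx5) to -0.83 (Pax1). Six3 had 17, 23 and 15 counts in Th0 Ezh2-deleted libraries, against 17, 19 and 15 in Th0 control libraries (0.01 ± 0.26), while its mark was 1.10 and 0.907 CPM per kb in Ezh2-deleted libraries, against 4.43 and 3.43 in control libraries.

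**Figure D5:**
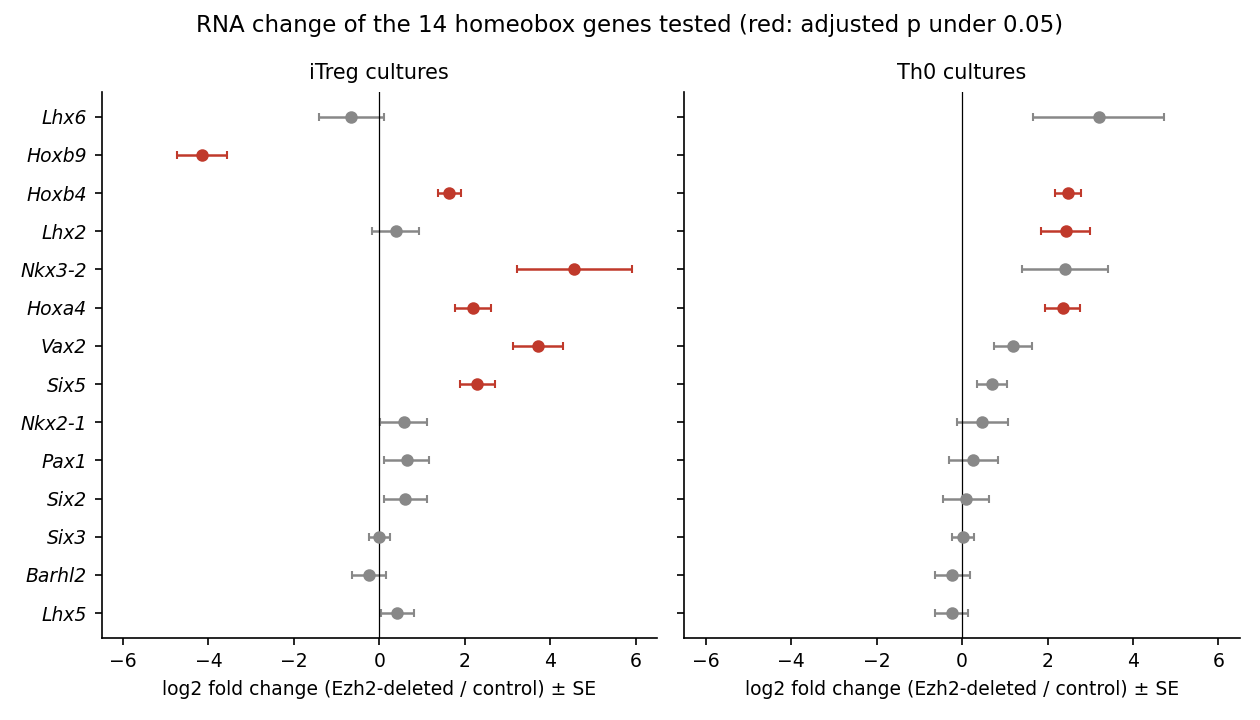
Log2 fold change of RNA (Ezh2-deleted over control, ± SE) of the 14 homeobox genes tested, in iTreg cultures on the left and Th0 cultures on the right, from 1 edgeR fit of 12 libraries; red points passed an adjusted p of 0.05. Hoxb9 has no point in Th0 cultures, where all control libraries were at 0.

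Most untested genes had few reads: 86 of the 92 never exceeded 10 counts in a library, and the largest count of any was 28. Hoxb3, Nkx2-9, Gbx1, Hoxc8 and Hoxd11 were among the 6 with the highest CPM in any library. Hoxb3, next to Hoxb4, had 6, 6 and 3 counts in Th0 Ezh2-deleted libraries, against 0, 0 and 3 in Th0 control libraries, and 9, 4 and 15 in iTreg Ezh2-deleted libraries, against 1, 0 and 4 in iTreg control libraries. Gbx1, a spinal cord gene, had 12, 13 and 1 counts in iTreg Ezh2-deleted libraries, against 1, 2 and 2 in iTreg control libraries. With a lower filter or none, no further member passed in either genotype comparison, the smallest adjusted p being 0.091 (Hoxa5, Th0, no filter).

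The genotype effects were then compared between cultures. No member differed by the interaction test (0 of 14, edgeR adjusted p under 0.05), while 4.49% of all genes did. At an unadjusted p under 0.05, 2 members were higher and 3 lower. No share of all genes is given at that setting or by DESeq2. DESeq2 called 1 higher (Vax2, adjusted p = 0.0468) and 1 lower (Hoxb9, 0.0144). The edgeR values were 2.52 ± 0.76 for Vax2 (adjusted p = 0.109), -6.73 for Hoxb9 (0.115, a fitted value that depends on the prior count, since Th0 control libraries are at 0), 1.60 ± 0.54 for Six5 (0.149), -2.04 ± 0.79 for Lhx2 (0.223) and -3.85 ± 1.72 for Lhx6 (0.32). Six5 passed without Th0 Ezh2-deleted library Ezh2KO.165 (adjusted p = 0.0452), and Vax2 without iTreg Ezh2-deleted library Ezh2KO.165 (0.0375) or iTreg control library 154 (0.0477). A different Ezh2 effect in the cultures was thus not established for any member by edgeR, although Hoxb9, Vax2, Six5 and Nkx3-2 passed the genotype test in iTreg cells only and Lhx2 in Th0 cells only.

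Between cultures, iTreg control cells differed from Th0 control cells in 5 members: Hoxb9, Hoxb4 and Lhx6 were higher and Vax2 and Six5 lower, where 19.9% of all genes were higher and 11.5% lower. Hoxb9 averaged 2.89 ± 1.41 CPM in iTreg control cells (SD, n = 3) and was at 0 in all Th0 control libraries, at least 24.9-fold higher when set against a floor of 3 counts per library. Hoxb4 was higher by 1.47 ± 0.30 on the log2 scale (adjusted p = 0.00608). Lhx6 was called with 81 reads in the iTreg control group and 1 in the Th0 control group (adjusted p = 0.00839). Pooled over libraries that is a ratio of 83.3, with a 95% exact binomial interval of 14.5 to 3331 that covers counting error only. Most of the 81 reads came from library 177, which stands apart (64, against 8 in library 154 and 9 in library 155). Vax2 was lower (-2.56 ± 0.62, adjusted p = 0.0138) and so was Six5 (-2.25 ± 0.41, 0.00367). Without Th0 control library 176 Vax2 was not called (adjusted p = 0.0586), which left 1 lower, and without iTreg Ezh2-deleted library Ezh2KO.165, which enters through the shared spread, 5 were higher. In Ezh2-deleted cells 6 members were higher and 1 lower in iTreg cultures at an unadjusted p under 0.05 (edgeR), and 1 was higher by DESeq2. No share of all genes is given at these settings. By edgeR at an adjusted p under 0.05 no member differed between cultures (0 of 14), where 25.4% of all genes did. The count became 1 higher without iTreg Ezh2-deleted library Ezh2KO.150 or Ezh2KO.165 or iTreg control library 177, and 1 lower without iTreg Ezh2-deleted library Ezh2KO.165. In Ezh2-deleted cells Vax2 averaged 0.745 ± 0.136 CPM in iTreg and 0.755 ± 0.128 CPM in Th0 cultures (SD, n = 3 each), and Hoxb4 averaged 3.41 ± 1.39 CPM in iTreg and 2.15 ± 0.094 CPM in Th0 cultures. The control libraries of this comparison also enter the genotype comparisons.

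Hox proteins bind DNA with TALE homeodomain partners (Pbx, Meis, Pknox and Tgif), and 9 of 11 of these genes were tested in RNA. Pbx3 was higher in Ezh2-deleted cells of both cultures, by 2.48 ± 0.18 in Th0 (adjusted p = 6.62e-05) and 1.84 ± 0.18 in iTreg (0.000165), and its mark was 0.982 CPM per kb in Ezh2-deleted and 1.97 in control cells. Pknox1 was lower in Th0 cells (-0.45 ± 0.08, adjusted p = 0.00766), and no other TALE gene passed. Of 19 homeobox genes with known lymphocyte expression outside the naming rule 17 were tested, and 3 were higher and 1 lower in Th0 cells, and 2 were higher and 1 lower in iTreg cells, where 8.74% of all genes were higher and 3.22% lower in Th0 and 9.45% and 7.26% in iTreg cells. Zeb2, a repressor induced in effector T cells, was higher in both (1.78 ± 0.49, adjusted p = 0.0417, and 3.91 ± 0.64, 0.00248), and Cux1 was higher in Th0 (0.73 ± 0.14, 0.00885) and lower in iTreg cells (-0.67 ± 0.14, 0.00942). Hhex, a blood progenitor gene, had a mark like the embryonic genes, 1.67 CPM per kb in Ezh2-deleted and 7.85 in control cells (-2.24, adjusted p = 7.73e-05), and its Th0 RNA change was 1.54 ± 0.46 (adjusted p = 0.058).

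Genes of the Polycomb and opposing machinery were counted in the same way, against the same shares of all genes. Of 11 PRC2 genes, only Ezh2 passed, in iTreg cells. Of 16 PRC1 genes, 1 was higher and 2 lower in Th0 cells and 2 were higher and 2 lower in iTreg cells. Bmi1, a core PRC1 subunit, was higher in both cultures (1.62 ± 0.11, adjusted p = 4.99e-05 in Th0, and 2.45 ± 0.11, 2.57e-06 in iTreg) and had less mark, 1.02 CPM per kb in Ezh2-deleted and 2.65 in control cells, and Phc3, a polyhomeotic subunit, was lower in both (-0.76 ± 0.19 with an adjusted p of 0.0293 in Th0 cells, and an adjusted p of 0.00591 in iTreg cells). Of 12 Trithorax and H3K27 demethylase genes, none passed in Th0 cells and Kdm6b, an H3K27 demethylase, was lower in iTreg cells (-1.15 ± 0.18, adjusted p = 0.00184).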

How the data were processed

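The deposited values are read counts, per gene in 12 RNA libraries and per whole-gene interval in 4 H3K27me3 libraries, and all were whole numbers. Per the submitters' processing notes, reads were handled with Trimmomatic 0.30, TopHat2 2.0.6, Bowtie2 2.1.0 and featureCounts 1.4.2, with build mm10. Whether counting used strand is not given in the sources used here, so reads of a gene and of an antisense or overlapping gene cannot be separated: 8 of the 14 tested members overlap another RefSeq gene. Intervals wholly under others held no reads. No input library was analysed here, so density includes background. Replicates are biological per the series' design text.

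RNA was tested with edgeR 4.0.16 (R 4.3.3) in 1 fit of the 12 libraries and 4 groups, after filterByExpr (minimum count 10) and TMM scaling, by its robust quasi-likelihood test, two-sided, with Benjamini-Hochberg adjustment over 12845 genes and a threshold of 0.05. ChIP was tested the same way on 20376 intervals with library totals as the scale. CPM and density divide by the total of counted reads. DESeq2 1.42.0, other scalings and filters, each culture alone, and every library left out in turn were tried, and the tests were first tested on simulated data. The simulated spread was smaller than that of the RNA data (common dispersion 0.081), and only genes with more reads were changed. The simulation therefore does not show how the tests perform for members with few reads or with libraries that stand apart. The counting floor of 3 reads covers counting error only, since reads carry no molecular identifiers. Named were Ezh2, every member tested in RNA, the 6 highest untested members (1 of which is not reported here), and for H3K27me3 the 8 highest control densities and the 6 largest and 6 smallest changes. Members, lists and most rules were chosen with earlier results of these data known. Tox, first listed with the lymphocyte genes, holds no homeobox and was dropped. CG counts used the RefSeq promoter table.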

Additional observations from a re-analysis of the deposited data

How the results depend on the processing

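The genotypes of a culture share no library number, and each genotype shares 1 number between cultures. Deviations from the group means correlated at 0.0445 (Ezh2-deleted) and -0.00307 (control) between same-numbered libraries over 12845 genes. Both iTreg libraries concerned are those that stand apart, and differently numbered libraries were not compared. The correlations therefore cannot decide whether the numbers pair the libraries, and the main tests used no replicate block. With a replicate block for both numbers, members called were 3 higher in Th0 and 4 higher and 1 lower in iTreg cells, 1 lower for the difference between the genotype effects (Lhx6, adjusted p = 0.026), and 1 higher between cultures in Ezh2-deleted cells. Under the block Lhx2 in Th0 (0.0882) and Nkx3-2 in iTreg cells (0.115) were not called, Lhx6 was called in Th0 cells (0.00728) and turned positive in iTreg cells (0.70), and Six3 was -0.049 in Th0 and -0.065 in iTreg cells. The block and the next choice were made after seeing the data. The iTreg libraries Ezh2-deleted Ezh2KO.165 and control 177 were left out together. The number of members with less H3K27me3 ranged from 0 to 96 when 1 ChIP library was left out (0 without either Ezh2-deleted library). Members higher in Th0 cells numbered 6 without both iTreg libraries that stand apart. In iTreg cells, 2 were higher with the 6 iTreg libraries alone and 2 lower without both libraries that stand apart. For the difference between the genotype effects, DESeq2 gave 1 higher and 1 lower, leaving out both iTreg libraries gave 1 higher and 3 lower, and leaving out 1 library gave 0 to 1 in each direction. Between cultures, control cells had 3 to 5 members higher and 1 to 3 lower when 1 library was left out. Ezh2-deleted cells had 1 higher by DESeq2, 3 higher and 1 lower without both iTreg libraries, and 0 to 1 in each direction when 1 was left out. The cause of these shifts was not tested.

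Some changes near 0 turned their sign when 1 library was left out. The ranges were -0.51 to 0.042 for Barhl2, -0.18 to 0.40 for Six2 and -0.18 to 0.16 for Six3 in Th0 cells, and -0.0098 to 0.80 for Lhx2, -0.063 to 0.67 for Lhx5, -1.10 to 1.01 for Lhx6 and -0.11 to 0.12 for Six3 in iTreg cells, and -0.20 to 0.073 for the mark of Irx6. In iTreg cells Lhx6 was 0.70 without both libraries that stand apart, where Six3 was -0.065. Six3 was -0.0041 with library totals, -0.0022 by DESeq2, -0.0056 with a minimum count of 3 and -0.0077 with no filter.

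Hoxb9 in iTreg cells and Hoxb4 in Th0 cells passed in all 19 alternatives, as did Hoxa4 in both cultures (adjusted p up to 0.0327 in Th0 and 0.0479 in iTreg) and Six5 in iTreg (up to 0.035). Vax2, Nkx3-2 and Lhx6 passed in Th0 cells without both iTreg libraries that stand apart (0.0122, 0.0274 and 0.0142), and Nkx3-2 also without iTreg Ezh2-deleted library Ezh2KO.165 alone (0.0428). Without both, Barhl2 passed as lower in iTreg cells (0.048). The backgrounds also move: over all alternatives the genes called higher numbered 602 to 3415 in Th0 (1123 as reported) and 331 to 3731 in iTreg (1214), those called lower 190 to 3282 (413) and 208 to 3678 (933), and intervals called lower 0 to 5699 (4205).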
